A study of Sus scrofa with 14 samples.

Results

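LPL and SLC2A4 are the genes of fuel uptake that are followed here through the stomach of young pigs. They were taken as the transcript rows whose only symbol in the annotation of the array was LPL or SLC2A4. Each had 1 row (15223090 for LPL, Entrez gene 397537, and 15213825 for SLC2A4, Entrez gene 396754), so they are 2 of the 10912 genes with a name and 2 of the 27460 rows tested. The oxyntic mucosa (OXY), the acid-secreting lining of the body of the stomach, was compared with the pyloric mucosa (PYL), the gastrin-secreting lining next to the outlet, to see how the functions of these regions differ. Both came from each of 7 male Large White X Landrace pigs, weaned, of 5 to 6 weeks and 11.1 kg on average. The pigs had no treatment other than 5 days on a standard feed and a last meal on the morning of death. The RNA of each sample was hybridized to 1 array, 14 in all. The methods describe the samples as transmural sections, so the muscle and connective layers under the mucosa may be included, and which layers were taken was not measured.

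LPL encodes lipoprotein lipase, which parenchymal cells such as adipocytes and muscle fibers secrete and which works on the inner face of capillaries, where it releases fatty acids from the triglycerides of circulating lipoproteins. SLC2A4 encodes GLUT4, the glucose transporter that insulin brings to the surface of muscle fibers and adipocytes. In the stomach the parietal cells of OXY, which pump acid, are packed with mitochondria and depend on a steady supply of such fuels.

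The arrays fell in 2 sets of different overall level, with a median log2 intensity of 4.83 to 4.92 on the 6 arrays of pigs 1 to 3 and of 5.63 to 5.73 on the 8 arrays of pigs 4 to 7. Both mucosae of a pig were in the same set, and the origin of the sets was not tested. The PYL arrays of pigs 4 and 7 stood apart: over all rows their Spearman correlation with each other was 0.989, against 0.954 to 0.965 with the PYL arrays of pigs 5 and 6 of the same set. The mucosa named on the label was borne out in these pigs by ATP4A, a subunit of the H+/K+-ATPase of parietal cells, which had a log2 intensity of 4.87 and 4.41 in the PYL of pigs 4 and 7, of 4.21 to 4.97 in the other PYL and of 11.93 to 12.33 in OXY. Their GAST, the gastrin of pyloric G cells, was 8.85 and 9.27, below the 10.62 to 11.47 of the other PYL and above the 4.96 to 5.90 of OXY. The changes of LPL and SLC2A4, and the comparisons between them, are therefore given with and without these pigs.

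LPL was more expressed in OXY. Its log2 intensity in OXY was 9.37, 9.04, 9.46, 10.32, 10.76, 10.46 and 9.39 in pigs 1 to 7, and in PYL it was 7.94, 5.54, 5.71, 9.70, 7.39, 7.52 and 9.17. OXY was the higher of the pair in 7 of 7 pigs. The groups overlapped all the same, because the PYL of pigs 4 and 7 lay within the range of OXY, while the other PYL were all below it. The mean of OXY was 9.83 ± 0.67 and that of PYL 7.57 ± 1.57 (SD, n = 7 each). The change, OXY minus PYL on the log2 scale, was 2.26 (SE 0.47), which is 4.79-fold, with an adjusted p of 0.017 (limma with a pig term, Benjamini-Hochberg adjustment over all rows). At this threshold of 0.05, 6.88% of all rows and 8.52% of the named genes were called higher in OXY. With the repeated-measures test of the methods, adjusted here over all rows, the call was lost (adjusted p = 0.069). The methods ran that test on a preselected set of genes and name no adjustment, so this is not the outcome of the study's own test. The exact two-sided sign-flip permutation test over the 7 pigs reached the smallest p it allows, 0.016, and gave a 95% interval of the change of 0.61 to 3.55. In bulk tissue such as this, fewer cells of a type and less RNA per cell cannot be told apart.

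The change of LPL was far from even between pigs. It was 1.43, 3.50, 3.75, 0.61, 3.36, 2.94 and 0.22 in pigs 1 to 7, from 1.16-fold in pig 7 to 13.5-fold in pig 3. The low values were those of pigs 4 and 7, followed by that of pig 1, and in all 3 the PYL level was high for its set. In pig 7 the OXY level was also the lowest of its set. With the mean of the array set removed, the SD of LPL was 0.48 among OXY and 1.24 among PYL, a ratio of 2.59. Without pigs 4 and 7 the change was 3.00 (SE 0.31, 7.98-fold, adjusted p = 0.0012), PYL was 6.82 ± 1.11 (SD, n = 5) and no PYL value reached the OXY range; 6.71% of all rows were called higher in OXY in these 5 pigs. Within pigs 1 to 3 the change was 2.89 (adjusted p = 0.046, with 2.42% of rows called higher in OXY) and within pigs 4 to 7 it was 1.78 (adjusted p = 0.18, with 2.5% of rows called). The call over 7 pigs was lost without pig 5 (adjusted p = 0.0517) or pig 6 (0.0542).

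**Figure D1:**
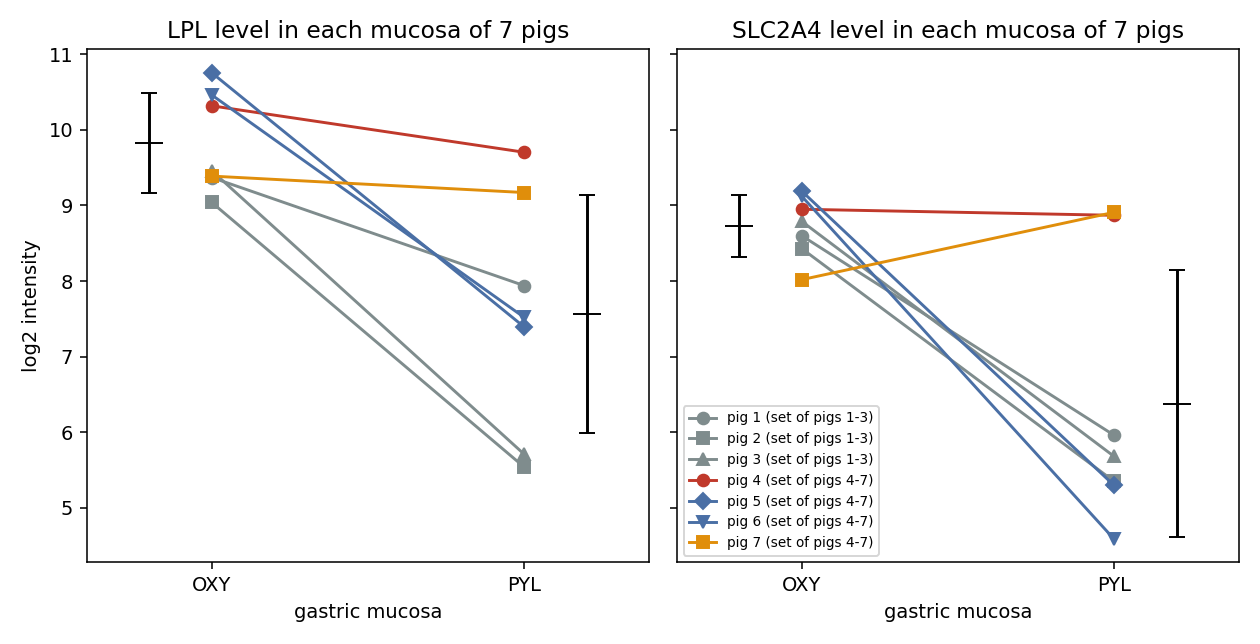
Log2 intensity (y axis) of LPL (left) and SLC2A4 (right) in OXY and PYL (x axis), with each line joining the samples of 1 pig and the black bars giving mean ± SD (n = 7). LPL fell along all lines and SLC2A4 along 6 of 7, and the PYL of pigs 4 and 7 sat at 9.70 and 9.17 for LPL and at 8.87 and 8.91 for SLC2A4, within the OXY range.

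SLC2A4 was also more expressed in OXY, with a wider spread of changes between pigs (SD 2.00, against 1.47 for LPL). Its log2 intensity in OXY was 8.60, 8.43, 8.79, 8.95, 9.19, 9.12 and 8.02 in pigs 1 to 7, and in PYL it was 5.96, 5.35, 5.68, 8.87, 5.30, 4.59 and 8.91. The PYL values fell in separate groups, with 5 pigs at or under 5.96 and pigs 4 and 7 within the range of OXY. OXY was the higher of the pair in 6 of 7 pigs, and in pig 7 PYL was 1.85-fold higher than OXY. The mean of OXY was 8.73 ± 0.41 and that of PYL 6.38 ± 1.77 (SD, n = 7 each). The change was 2.35 (SE 0.64), or 5.10-fold, with an adjusted p of 0.049 from limma. The call was lost with the repeated-measures test, again adjusted over all rows (adjusted p = 0.13), with quantile normalization (0.051) and with 16 added to the intensity (0.073). With exact sign flips over the pigs, two-sided, p was 0.047, and the 95% interval of the change was 0.08 to 3.89.

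The changes of SLC2A4 were 2.64, 3.08, 3.11, 0.08, 3.89, 4.54 and -0.89 in pigs 1 to 7. The changes of 5 pigs were thus 2.64 or more and that of pig 4 was near 0. The spread lay mostly in PYL: with the mean of the array set removed, the SD was 0.44 among OXY and 1.79 among PYL, a ratio of 4.10. In pig 7 the OXY level, 8.02, was also the lowest of all OXY. Without pigs 4 and 7 the change was 3.45 (SE 0.26, 10.9-fold, adjusted p = 3.4e-04) and PYL was 5.37 ± 0.52 (SD, n = 5), clear of the OXY range. Within pigs 1 to 3 it was 2.94 (adjusted p = 0.0036) and within pigs 4 to 7 it was 1.90 (adjusted p = 0.34). The call over 7 pigs was lost when any of pigs 1, 2, 3, 5 or 6 was left out, with an adjusted p of 0.114, 0.0982, 0.119, 0.124 and 0.122, and held without pig 4 (0.0378) or pig 7 (0.0103).

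The sizes of the changes of LPL and SLC2A4 could not be distinguished. The change of LPL minus that of SLC2A4 was -0.09 on average (SD 1.03, n = 7), with a 95% interval of -1.21 to 0.82 (p = 0.81, exact two-sided test over sign flips). It was above 0 in 4 of 7 pigs and reached from -1.59 in pig 6 to 1.11 in pig 7. Without pigs 4 and 7 it was -0.46 (SD 0.98, n = 5, exact two-sided p = 0.38, where the smallest possible p was 0.063). Nor did either change differ detectably between the array sets. The change in pigs 4 to 7 minus that in pigs 1 to 3 was -1.11 (SE 0.92) for LPL and -1.04 (SE 1.31) for SLC2A4, with adjusted p of 0.61 and 0.74 for the interaction in limma. Exact two-sided permutation tests between the sets gave p = 0.31 and p = 0.49, where the smallest possible p was 0.029. These differences stayed below 0 whichever 1 pig was left out, but their size varied. With 1 pig left out, that of LPL ranged from -1.84 without pig 1 to -0.59 without pig 7, and that of SLC2A4 from -1.92 without pig 6 to -0.11 without pig 7. Without both pigs 4 and 7 they were above 0, at 0.26 (SE 0.69) and 1.27 (SE 0.25), with adjusted p of 0.98 and 0.92. Over the 7 pigs, no row was called for this interaction (0%), although 3197 of the 27460 had an unadjusted p under 0.05.

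LPL and SLC2A4 had in common a large change in 5 pigs that was not seen in pigs 4 and 7. After these values had been seen, the named genes were counted by the same pattern. A change above 1 (log2) in each of pigs 1, 2, 3, 5 and 6 was found in 102 of the 10912 named genes. Of these, 67 were also above 1 in both pigs 4 and 7, 20 in 1 of them and 15 in neither. The 15 were ACACB, ADHFE1, ATP8A1, AUTS2, BMPR1B, CNN3, FAM110B, HOXA5, IGFBP5, LPL, PLCL1, SLC27A1, SLC2A4, SMAD9 and LOC100525239. SLC27A1 encodes the fatty acid transport protein FATP1, and its change was 1.03 to 1.32 in the 5 pigs, 0.31 in pig 4 and 0.00 in pig 7. ACACB encodes the acetyl-CoA carboxylase that makes malonyl-CoA at the mitochondrion and so holds back fatty acid oxidation. Its change was 1.30, 2.85, 2.25, -0.23, 3.53, 2.54 and -0.95 in pigs 1 to 7, which over the 7 pigs did not pass the test (1.61, adjusted p = 0.093).

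Genes of the cells that could hold LPL and SLC2A4 RNA were read next to them, as lists of markers. Median changes are to be read against -0.0018 over all named genes, and counts against the 8.52% of named genes called higher in OXY and the 5.1% called higher in PYL. No adipocyte marker passed the test in favor of OXY. Of 20 measured of 26 listed, none was called higher in OXY and 4 were called higher in PYL, with a median change of -0.22, and 7 had an unadjusted p under 0.05 (repeated-measures test of the methods, 0 and 3). The 4 were ACVR1C (-1.31), DGAT2 (-1.26), AQP7 (-0.56) and LIPE (-0.56, SE 0.11, adjusted p = 0.014), the last of which is the hormone-sensitive lipase of stored fat. AQP7 was dim, at a mean log2 level of 3.61 in OXY and 4.17 in PYL, as was ACVR1C in OXY (3.89). The defining marker LEP was dimmer, at 3.34 in OXY and 3.42 in PYL, so a change of it may go undetected. The array medians were 4.83 to 5.73. Of the other defining markers, PLIN1, the coat protein of fat droplets, changed by -0.36, CIDEC by -0.42, LEP, leptin, by -0.08 and CFD by 0.02, and none of them passed the test. The mean log2 level of the list was 5.23 to 6.00 in OXY and 5.54 to 6.27 in PYL, and it was 6.27 and 6.00 in the PYL of pigs 4 and 7. ADIPOQ and FABP4 are not analysed here.

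Muscle markers, read because muscle is a known site of both genes, gave no call. None of the 12 measured striated muscle markers of 20 listed and none of the 7 measured smooth muscle markers of 12 listed was called in either direction, in limma or in the repeated-measures test. An unadjusted p under 0.05 was found for 5 and 2 of them. Median changes were -0.05 and -0.58, and -0.11 and -0.065 without pigs 4 and 7. The mean log2 level of the smooth muscle list was 8.39 to 10.35 in OXY and 9.11 to 11.12 in PYL, and its highest PYL value was that of pig 4 (11.12), with pig 7 at 10.86. Its mean change was -0.99 in pig 1, -0.78 in pig 4, -2.0 in pig 7 and was -0.35 to 0.98 in the others, so the pigs with the 3 lowest changes of LPL were also those with the lowest changes of smooth muscle genes. The mean log2 level of the striated muscle list was 3.43 to 4.53 in OXY and 3.57 to 4.72 in PYL. Within it the largest change was that of ACTN2, at -1.25 (adjusted p = 0.19 in limma), with a PYL level of 6.45 ± 1.52 (SD, n = 7). ACTN2 changed by -1.47 in pig 4 and -4.42 in pig 7, against -1.74 to 1.08 in the other pigs.

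Endothelial markers, from the cells on whose surface the lipase works, moved with LPL. Of 6 measured of 12 listed, 5 were called higher in OXY (median 0.53): KDR, the main receptor of VEGF, by 1.17 (SE 0.10, adjusted p = 2.5e-04), TEK, the receptor of angiopoietins, by 0.91 (SE 0.12, adjusted p = 0.0021), and VWF, PECAM1 and ROBO4 by 0.64, 0.43 and 0.36. The last 3 lost the call without any of pigs 1, 2, 3, 5 or 6, PECAM1 also without pig 4, at adjusted p of up to 0.115. With the repeated-measures test 2 of the 6 were called. The mean change of this list was 0.28 in pig 4 and 0.10 in pig 7, against 0.63 to 0.91 in the other pigs, and its mean log2 level was 6.97 to 8.23 in OXY and 6.09 to 7.67 in PYL, with the highest PYL value in pig 4.

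Over the 7 pigs, the change of LPL was correlated with the mean change of the endothelial list (r = 0.93, exact permutation p = 9.9e-04, adjusted p = 0.015; rho = 0.93, exact permutation p = 0.0067, adjusted p = 0.051) and of the smooth muscle list (r = 0.86, exact permutation p = 0.0042, adjusted p = 0.031; rho = 0.93, adjusted p = 0.051). Without pigs 4 and 7, r was 0.73 (exact permutation p = 0.11) and 0.77 (exact permutation p = 0.14) over 5 pigs. Neither then passed the test, which has little power over 5 pigs and cannot show how far the relations depend on pigs 4 and 7. The adjustment is over the 15 pairs of LPL, SLC2A4 and the 7 marker lists. With 1 pig left out, r was 0.90 to 0.98 for the endothelial list and 0.76 to 0.91 for the smooth muscle list. The adjusted p of the first then exceeded 0.05 without pigs 4, 5 or 7 (0.052, 0.083 and 0.083) and that of the second without any of the 7 (0.052 to 0.302). The part of these cells in the change of LPL was not tested. For the adipocyte (-0.40), striated muscle (0.44), parietal cell (-0.30), chief cell (-0.71) and macrophage (0.02) lists, r with LPL did not pass the test. The changes of SLC2A4 fell in separate groups of 5 and 2 pigs. A test over all pigs therefore cannot tell its relations with LPL and the lists from the gap between these groups, and their r over 7 pigs is not given. The pairs of SLC2A4 with LPL (positive) and with the chief cell list (negative) had an adjusted p of 0.048 by exact permutation in the family of 15. It exceeded 0.05 when any 1 pig was left out. Within the 5 pigs r of SLC2A4 was 0.33 with LPL (exact permutation p = 0.62) and -0.85 with the chief cell list (exact permutation p = 0.11).

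Gland cell markers did not drop out in pigs 4 and 7. All 10 measured parietal cell markers of 12 listed were called higher in OXY, with a median change of 4.96, and the mean change was 5.06 in pig 4 and 4.76 in pig 7, within the 4.39 to 5.24 of the other pigs. All 3 measured chief cell markers of 4 listed were called higher in OXY (median 0.90), and their mean change in pigs 4 and 7, 1.85 and 1.65, was above that of the others, 0.99 to 1.51. The macrophage list, which was read because macrophages secrete LPL, had 3 of 10 measured genes called higher in PYL and none higher in OXY (median -0.28), with 7 at an unadjusted p under 0.05. They were TYROBP, FCER1G and CD14, at -0.45, -0.37 and -0.27. Each lost the call when single pigs were left out: TYROBP without pig 3, 5, 6 or 7, FCER1G without any pig but 1 and CD14 without pig 3 or 6, at adjusted p of up to 0.115. Without pigs 4 and 7, 1 macrophage gene was called. No marker of any list was at 0, but the lowest log2 intensity of the arrays was 1.22 to 2.34, so this says nothing on detection.

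**Figure D2:**
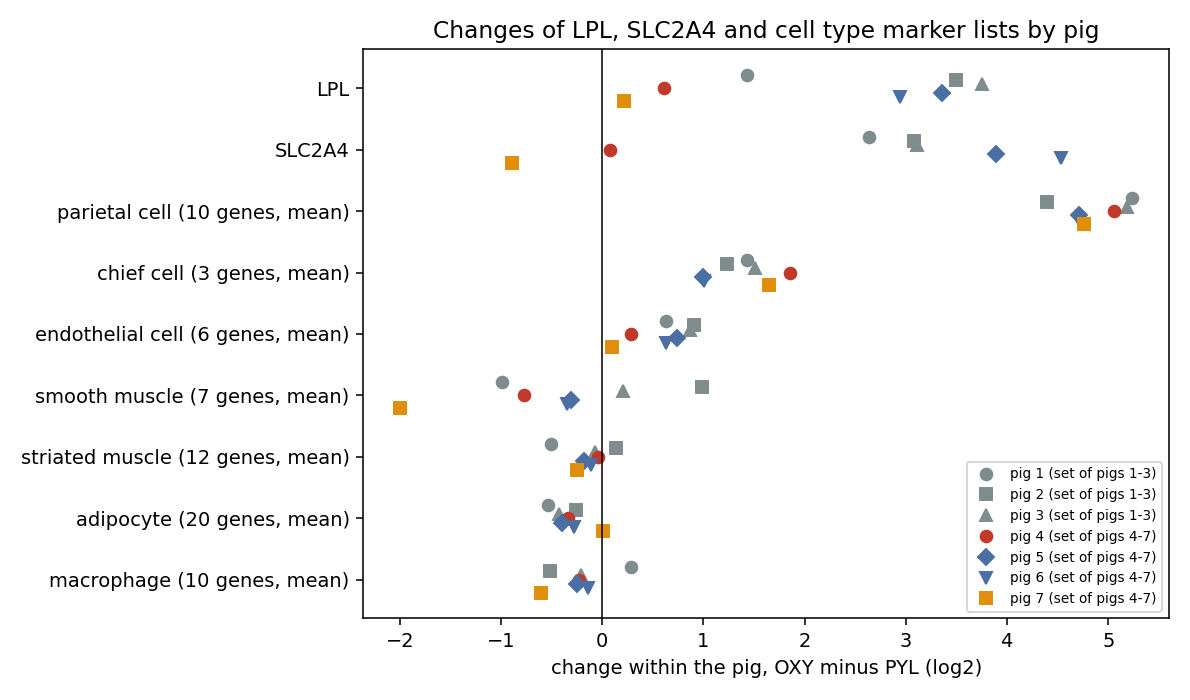
Change within each pig (x axis, OXY minus PYL, log2) of LPL, of SLC2A4 and of the mean of each marker list (y axis), with 1 point per pig. In pigs 4 and 7 LPL (0.61 and 0.22) and SLC2A4 (0.08 and -0.89) lay near or below 0 while the parietal cell markers, at 5.06 and 4.76, lay with those of the other pigs.

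Of the genes around lipoprotein lipase, which activate it, inhibit it, carry it or take up what it leaves, 16 of 24 listed were measured. In this list 1 was called higher in OXY (6.25%, against 8.52% of named genes) and 3 higher in PYL (18.8%, against 5.1%), with a median change of 0.02. The gene higher in OXY was VLDLR, a receptor of triglyceride-rich lipoproteins that works beside the lipase, at 0.60 (SE 0.16, adjusted p = 0.046). Its change was 0.09 in pig 4 and -0.15 in pig 7, against 0.56 to 1.28 in the other pigs, and its call was lost without pig 1, 2, 3, 5 or 6 (0.0946 to 0.119). Higher in PYL was LIPC, the hepatic lipase of the same family, at -1.76 (SE 0.22, adjusted p = 0.0015, lower in OXY in 7 of 7 pigs). FURIN, a protease that can cut the lipase and its inhibitors, followed at -0.70 (SE 0.15, adjusted p = 0.019), and LRP1, an uptake receptor of lipoprotein remnants, at -0.35 (SE 0.07, adjusted p = 0.018). FURIN lost the call without pigs 1, 3 or 6 (0.0565 to 0.0583) and LRP1 without pigs 3 or 6 (0.0507 and 0.0517). Among those that did not pass the test were the inhibitor ANGPTL4 (-0.29, adjusted p = 0.085) and the activator APOC2 (0.09). APOC2 was dim, at a mean log2 level of 3.88 in OXY and 3.80 in PYL, where a change may go undetected. GPIHBP1, which carries the lipase to the capillary wall, is not analysed here.

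Several genes that take fatty acids into cells and bind them there were more expressed in OXY. Of 20 measured of 22 listed, limma called 8 higher in OXY (40%, against 8.52% of named genes) and none in PYL (against 5.1%). The median change was 0.09. An unadjusted p under 0.05 was found for 10, and the repeated-measures test called 4 in OXY and none in PYL. FABP3, the fatty acid binding protein known from heart, led with 1.70 (SE 0.20, 3.25-fold, adjusted p = 0.0012). ACSL1, which activates fatty acids by joining them to coenzyme A, followed with 0.99 (SE 0.17, adjusted p = 0.0071) and SLC27A3, of the fatty acid transport protein family, with 0.92 (SE 0.21, adjusted p = 0.024). FABP5, the epidermal fatty acid binding protein, was higher by 0.79 (SE 0.09, 1.73-fold, adjusted p = 0.0012) and in 7 of 7 pigs. The other 4 called were SLC27A1 (0.86), CD36 (0.84), ACSL3 (0.77) and DBI (0.54). SLC27A3 lost the call without pigs 1, 3 or 4 (0.058 to 0.0697), CD36 without pigs 1, 2, 3, 5 or 6 (0.0763 to 0.0929) and DBI without pigs 1, 4 or 5 (0.0526 to 0.0633).

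Among these 8 genes, pigs 4 and 7 were low for some and high for others. CD36, the scavenger receptor that passes fatty acids into muscle and endothelium, changed by 0.73 to 1.53 in the other 5 pigs, by 0.42 in pig 4 and by -0.33 in pig 7. ACSL1 changed by 0.92 to 1.85 in the other 5 pigs, by 0.58 in pig 4 and by 0.24 in pig 7. In both genes, as in SLC27A1, pigs 4 and 7 were thus the lowest, as they were for LPL. FABP3 went the other way, with 2.36 and 2.55 in pigs 4 and 7 against 0.79 to 1.89. DBI, the acyl-CoA binding protein, was likewise highest in pigs 4 and 7, at 0.72 and 1.26 against 0.21 to 0.54. SLC27A3 was highest in pig 7, at 2.11, while pig 4, at 1.07, lay within the 0.30 to 1.24 of the other pigs. FABP5 and ACSL3, at 0.69 and 0.59 and at 0.92 and 0.71, did not leave the range of the rest. These orders were read from the values and were not tested.

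**Figure D3:**
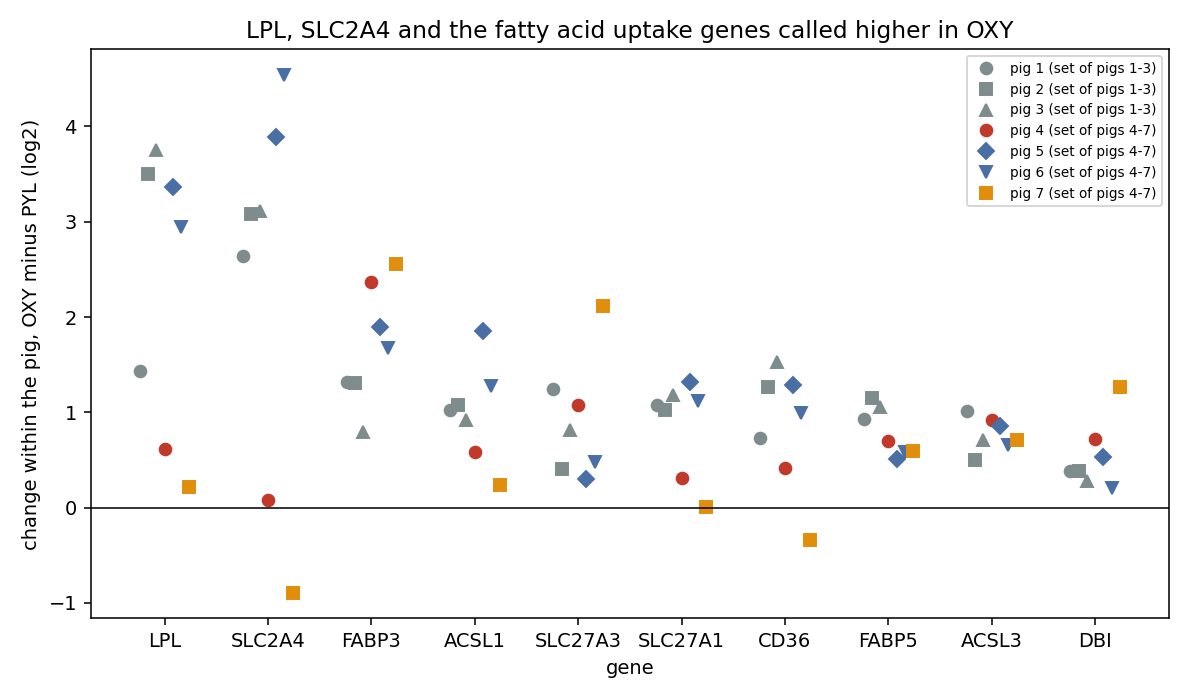
Change within each pig (y axis, OXY minus PYL, log2) of LPL, SLC2A4 and the 8 fatty acid uptake genes called higher in OXY (x axis), with 1 point per pig. Pigs 4 and 7 are the lowest for LPL, SLC2A4, ACSL1, SLC27A1 and CD36 and the highest for FABP3 (2.36 and 2.55) and DBI (0.72 and 1.26).

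SLC2A4 was the only measured glucose transporter of those listed to pass the test over the 7 pigs, in limma as given above and not in the repeated-measures test. Of the 10 others measured of 17 listed, none was called in either direction in limma or in the repeated-measures test, and 5 had an unadjusted p under 0.05. Their median change was -0.03, with a range of -0.57 to 0.50. The highest, SLC2A11, had a change of 0.50 (SE 0.14, adjusted p = 0.054) and the lowest were SLC5A1, the sodium-coupled glucose carrier of the intestine, at -0.57 (adjusted p = 0.19) and SLC2A10 at -0.56 (adjusted p = 0.11). Without pigs 4 and 7, SLC2A11 was called higher in OXY (0.71, adjusted p = 0.0028) and SLC5A1 and SLC2A10 higher in PYL (-0.92 and -0.81, adjusted p = 0.022 and 0.018). In these 5 pigs 8.6% of named genes were called higher in OXY and 7.07% higher in PYL. SLC2A2, the transporter of liver and islets, changed by 0.02 in the brighter of its 2 rows. The mean log2 level of that row was 12.29 in OXY and 12.27 in PYL, near the highest values on the arrays (12.56 to 12.93). Whether this row measures SLC2A2 was not tested, and a change could be hidden at such a level. SLC2A7, SLC5A9, SLC5A4 and SLC5A2 were dim, with mean log2 levels of 3.58 to 4.79 in the 2 mucosae, below the array medians of 4.83 to 5.73. In such rows a change may go undetected. The genes named here other than SLC2A4 were chosen after their values were seen. SLC2A1 and SLC2A3, which carry basal glucose uptake in most cells, are not analysed here.

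**Figure D4:**
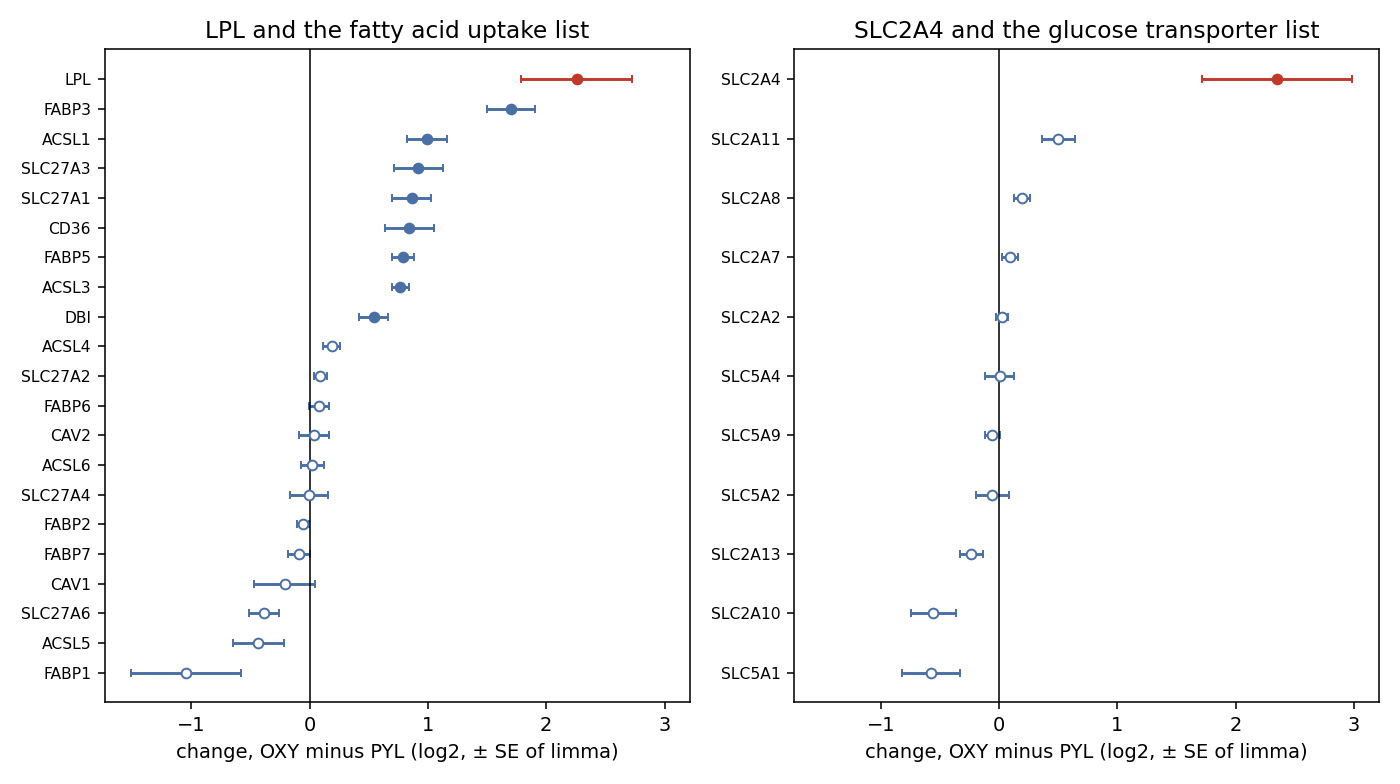
Change (x axis, OXY minus PYL, log2, ± SE of limma, 7 pigs) of LPL with the 20 measured fatty acid uptake genes (left) and of SLC2A4 with the 10 other measured glucose transporters (right), with genes on the y axis, LPL and SLC2A4 in red and filled points for adjusted p under 0.05. In OXY 8 of 20 fatty acid uptake genes were called higher, against none of the 10 other transporters.

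Of the genes that signal from insulin to SLC2A4 and move its vesicles, 17 of 29 listed were measured. Among these, 3 were called higher in OXY (17.6%, against 8.52% of named genes) and 1 higher in PYL (5.88%, against 5.1%), with a median change of -0.02. TBC1D4, the AKT substrate that holds SLC2A4 vesicles back until it is phosphorylated, was higher by 0.91 (SE 0.14, adjusted p = 0.0038) and in 7 of 7 pigs. PRKAA2, a catalytic subunit of AMP-activated kinase, was higher by 0.88 (SE 0.08, adjusted p = 2.5e-04). Unlike SLC2A4, both were above 0.4 in pigs 4 and 7, TBC1D4 at 1.41 and 1.11 and PRKAA2 at 0.89 and 0.55. RAB13, a small GTPase of vesicle docking, changed by 0.37 (adjusted p = 0.025), and IRS1, which relays the signal of the insulin receptor, by -0.47 (adjusted p = 0.030). RAB13 lost the call without pigs 1, 3 or 5 (0.0506 to 0.0701) and IRS1 without pigs 1, 3, 4, 6 or 7 (0.0559 to 0.0842). The insulin receptor INSR itself, at 0.17, did not pass the test.

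Among transcription factors known to act on LPL or SLC2A4, 19 of 27 listed were measured, with a median change of -0.03. In this list 2 were called higher in OXY (10.5%, against 8.52% of named genes) and 2 higher in PYL (10.5%, against 5.1%). The share in OXY was thus near that of all named genes. THRB, a thyroid hormone receptor, had the largest change of the list, 2.32 (SE 0.36, 4.98-fold, adjusted p = 0.0050). It was 2.34 to 3.54 in pigs 1, 2, 3, 5 and 6, 1.05 in pig 4 and 0.55 in pig 7, so its order over pigs was near that of SLC2A4. PPARA, a fatty acid-sensing nuclear receptor, was higher by 1.10 (SE 0.17, adjusted p = 0.0051), with 1.14 in pig 4 and -0.0055 in pig 7. CEBPA, a factor of fat cell and liver genes, was higher in PYL (-0.51, SE 0.10, adjusted p = 0.012), as was MLXIPL, which responds to glucose (-0.42, adjusted p = 0.029, lost without pig 3, 5 or 6 at 0.0668 to 0.0774). PPARG is not analysed here.

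Downstream of uptake, the genes of fatty acid oxidation were the list with the largest share called higher in OXY among those on fuel. Of 16 measured of 21 listed, 10 were called higher in OXY (62.5%, against 8.52% of named genes) and 1 higher in PYL (6.25%, against 5.1%). The median change was 0.37, and without pigs 4 and 7 the counts were 8 and 1. ACADM, the medium-chain acyl-CoA dehydrogenase, was higher by 0.98 (SE 0.11, adjusted p = 9.5e-04), HADHB, of the trifunctional protein, by 0.77 and ETFB, of the electron transfer flavoprotein, by 0.64, each in 7 of 7 pigs. The exception was ACADL, the long-chain acyl-CoA dehydrogenase, which was higher in PYL (-1.05, SE 0.13, adjusted p = 0.0014). Of 24 measured of 36 listed genes of glucose use, 6 were called higher in OXY (25%) and 2 higher in PYL (8.33%), with a median of 0.15. PDHB, a subunit of the pyruvate dehydrogenase complex, led with 1.11 (SE 0.07, adjusted p = 6.9e-05), before PGK1 of glycolysis (0.77) and MPC2 of the mitochondrial pyruvate carrier (0.73). PYGL, glycogen phosphorylase of liver type, was higher in PYL (-0.58, SE 0.12, adjusted p = 0.014). PYGM, the muscle type, did not pass the test (-0.90, adjusted p = 0.39). Its change was -2.29 in pig 4 and -3.93 in pig 7, against -1.60 to 1.57 in the other pigs. Pigs 4 and 7, which had the lowest changes of LPL and SLC2A4, stood differently from gene to gene. In them PDHB changed by 1.46 and 1.18 and ACADM by 1.09 and 0.84, within or above the range of the other pigs. ETFB was lowest in them, at 0.33 and 0.43 against 0.55 to 0.90 in the others. So were HADHA (0.40 and -0.02, against 0.49 to 0.68), ETFA (0.41 and 0.35, against 0.51 to 0.71) and TPI1 (0.16 and 0.19, against 0.42 to 0.63). These orders were not tested.

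The genes whose changes over the 7 pigs were most like those of LPL and SLC2A4 were listed by Pearson r, as a description, among 1073 named genes of at least median level and with an SD of changes of at least 0.5. For LPL they were POLH (r = 0.983), NXN (0.981), FADS2 (0.980), GFRA1 (0.976) and GSTA4 (0.974). None of these 5 had a change that passed the test, and all 5 were below 0 in pig 7. GFRA1, a receptor subunit for the neurotrophic factor GDNF, was between 0.18 and 0.91 in pigs 2, 3, 5 and 6 and at -0.62, -1.67 and -2.21 in pigs 1, 4 and 7. For SLC2A4 they were LOC100525140 (0.989), GRAMD1A (0.985), ANK3 (0.984), PDK3 (0.983) and THRB (0.982). Of these, ANK3, which encodes the membrane anchor ankyrin-G, changed by 1.98 (SE 0.22, adjusted p = 8.6e-04) and, like THRB, stayed above 0.5 in pigs 4 (1.26) and 7 (0.88). All points come from the same 14 arrays, and the PYL arrays of pigs 4 and 7 weigh on each of these r, and for SLC2A4 the 7 points fall in groups of 5 and 2 pigs.

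**Figure D5:**
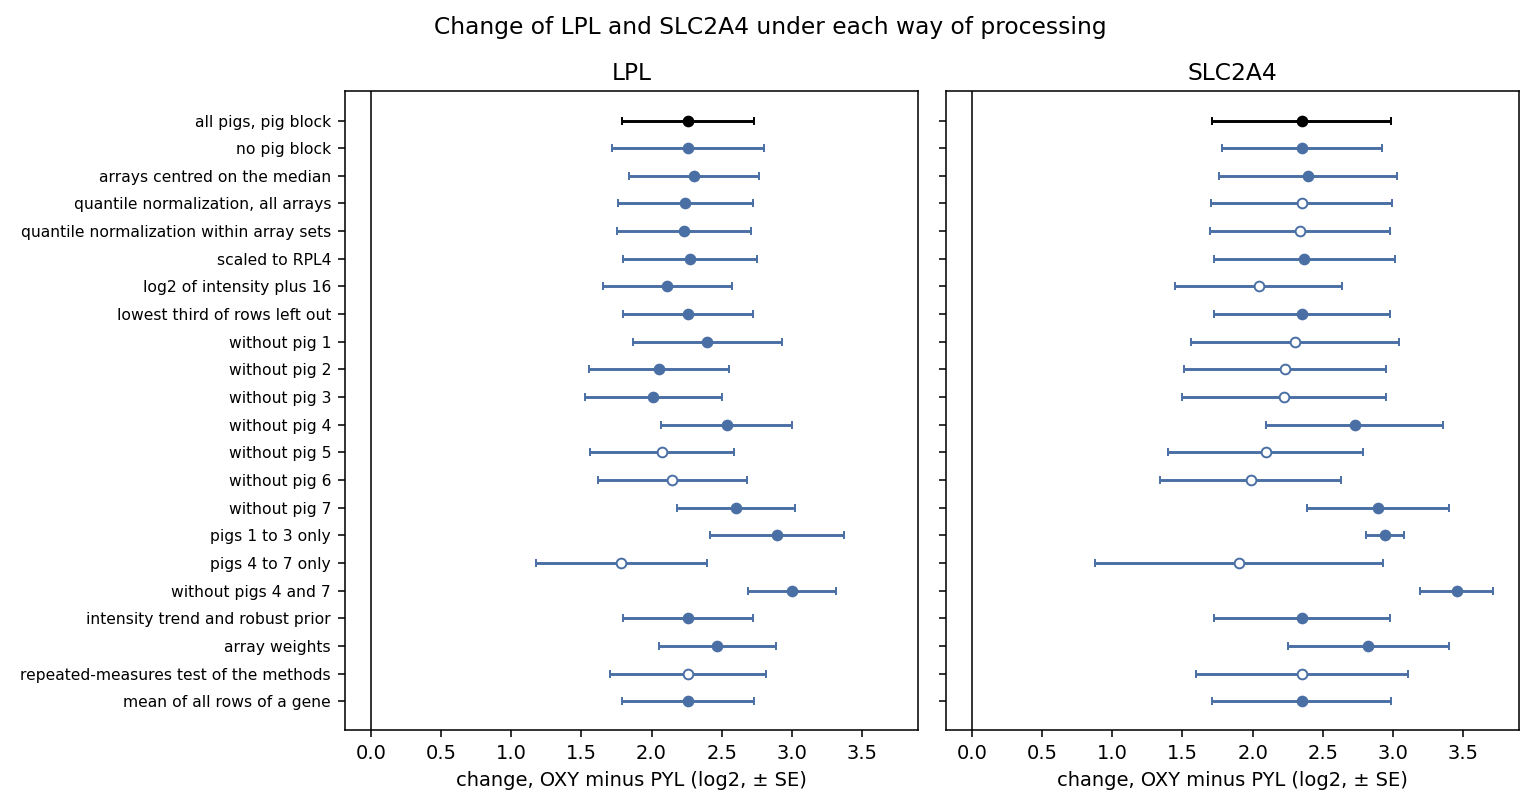
Change of LPL (left) and SLC2A4 (right) (x axis, OXY minus PYL, log2, ± SE) under each way of processing (y axis), with filled points for adjusted p under 0.05. All changes lie above 0, from 1.78 to 3.00 for LPL and from 1.90 to 3.45 for SLC2A4.

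Among the alternatives, the changes of both genes were highest without pigs 4 and 7 and lowest in pigs 4 to 7 alone, where these pigs are 2 of 4.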

How the data were processed

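Per the labels and the methods, the authors hybridized total RNA to porcine whole-transcript arrays of Affymetrix (Gene 1.1 ST) and ran a Robust Multichip Analysis in Expression Console. The deposited values are linear intensities for 27460 transcript rows. Which steps made them, and the genome build, are not given in the sources used here. Here they were log2-transformed and not normalized again. The number of arrays limits the precision.

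Rows were named from the platform annotation: 11982 had 1 symbol, 373 had several and 15105 had none. Of all rows, 1239 held the values of another row and were kept. A gene with several rows was read from that with the highest mean. All rows were tested with limma (version 3.58.1, R 4.3.3), with the pig as a block, Benjamini-Hochberg adjustment and a threshold of 0.05. Exact sign-flip tests (128 patterns) were run over pigs. The code was tested on simulated data. The block follows the design, as both samples came from 1 animal. Deviations from the mucosa means correlated within pigs at 0.02 to 0.62, and at -0.03 to 0.62 within array sets.

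LPL and SLC2A4 and the 14 gene lists (274 genes, 190 measured) were chosen with earlier results of these data known. Named from each list were up to 3 called genes of largest change in the main direction and 1 the other way, the defining adipocyte markers, FABP5 and the 5 genes most like LPL and SLC2A4. Others named were chosen after their values were seen. The 21 alternatives were no block, median centering, quantile normalization over all arrays or within sets, scaling to RPL4, log2 of intensity plus 16, the dimmest 1 in 3 rows left out, each pig left out, each array set alone, no pigs 4 and 7, a trend with robust prior, array weights, the repeated-measures test of the methods and averaging the rows of a gene. The repeated-measures test was adjusted over all rows here, where the methods applied it to a preselected set of genes and name no adjustment. Promoter motifs were not analysed here.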

Additional observations from a re-analysis of the deposited data

Results flagged for a closer look

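Of 80 groups of 7 values tested for 1 value far from the others, 3 stood out, where chance flags about 1 in 20. The change of PPARA in pig 7 was -0.0055, with the other pigs at 1.00 to 1.60. The change of CEBPA in pig 7 was 0.070, with the others at -0.73 to -0.50. The change of PLIN1 in pig 1 was -1.28, with the others at -0.55 to -0.01. Neither LPL nor SLC2A4 was among them, since pigs 4 and 7 lay close together for both.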

How the results depend on the processing

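LPL and SLC2A4 stayed higher in OXY under all 21 alternatives. Several of these could not turn the direction: no block, a trend with robust prior, the repeated-measures test, leaving out dim rows and averaging rows left both changes as they were. For LPL, higher in OXY in 7 of 7 pigs, leaving out pigs could not turn it either. The change of LPL was 2.01 to 2.60 with 1 pig left out. It no longer passed the threshold in pigs 4 to 7 alone (1.78, adjusted p = 0.18), under the repeated-measures test (2.26, adjusted p = 0.069) and without pigs 5 or 6. The change of SLC2A4 was 1.99 to 2.89 with 1 pig left out. It missed the threshold under quantile normalization over all arrays (2.35, adjusted p = 0.051) or within sets (2.34, adjusted p = 0.051), with 16 added to the intensity (2.04, adjusted p = 0.073), in pigs 4 to 7 alone (1.90, adjusted p = 0.34), under the repeated-measures test (2.35, adjusted p = 0.13) and without any of pigs 1, 2, 3, 5 or 6. Without the pig block, LPL (2.26, adjusted p = 0.033) and SLC2A4 (2.35, adjusted p = 0.037) kept their calls, while 326 rows were called higher in OXY and 150 in PYL, against 1888 and 1226 with the pairing. In pigs 1 to 3 alone there were 665 and 562, in pigs 4 to 7 alone 686 and 289, and the repeated-measures test called 637 in PYL. With 1 pig left out, 690 to 1232 rows were called higher in PYL, the lowest being those without pig 1 (784), 3 (787) and 6 (690). Median centering gave 2305 and 989, and scaling to RPL4 1895 and 985.

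The change of LPL minus that of SLC2A4 was -0.29 to 0.16 with 1 pig left out, and turned positive without pig 1 (0.10) or pig 6 (0.16). The change in pigs 4 to 7 minus that in pigs 1 to 3 turned to 0.26 for LPL and 1.27 for SLC2A4 without pigs 4 and 7, an alternative chosen after the data were seen. The r of LPL with adipocyte markers became 0.26 without pig 7 (from -0.67 with 1 pig left out), and that with macrophage markers became -0.021 after median centering and, without pigs 3, 6 and 7, -0.0037, -0.014 and -0.498 (-0.50 to 0.37 with 1 pig left out). CIDEC turned to 0.021 in pigs 4 to 7 alone. CFD ranged from -0.079 to 0.092 with 1 pig left out, below 0 without pigs 1, 4 or 7, and turned to -0.083 in pigs 1 to 3 alone, to -0.19 without pigs 4 and 7 and to -0.061 with array weights. SLC2A2 turned to -0.034 and -0.042 under quantile normalization over all arrays and within sets and to -0.011 as the mean of its rows. GFRA1 turned to 0.34 in pigs 1 to 3 alone and to 0.29 without pigs 4 and 7. Of the other 67 named genes tried, 63 kept their direction under every alternative, and 14 of the 47 called kept their call under every alternative other than the missing block. The cause of these differences was not tested. The deposited values give no background per row, so signal over background could not be read for dim rows.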
